A study of Rattus norvegicus with 8 samples.

Results

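The genes described here are Slc5a11, Clu, Gna14, Scel, Tbc1d1, Vwc2, Lgals3 and Rasd1, 8 genes whose RNA differed in the same direction between vinclozolin and control lineage rats in whole ventral prostate and in prostate epithelium. They were chosen by the vinclozolin minus control change measured in each preparation, for its shared sign, and all probe sets (groups of probes for 1 transcript) annotated to exactly 1 of the 8 symbols were taken. That gave 11 of the 31042 non-control probe sets, and all 11 were among the 21729 that passed the filter on low levels. Clu, Gna14 and Tbc1d1 have 2 probe sets and the other 5 genes have 1. Because the lineage changes chose the genes, those changes are given as a description, with counts of calls set only beside those over all probe sets.

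Vinclozolin is an antiandrogenic fungicide, and the study compared the prostate RNA of a vinclozolin and a control lineage. Pregnant Sprague-Dawley founders were injected into the peritoneum on gestation days 8 to 14, and the rats measured were their F3 descendants. The 4 groups were whole ventral prostate of vinclozolin lineage males at 180 days, whole ventral prostate of control lineage males at 180 days, prostate epithelium of vinclozolin lineage males at 45 days and prostate epithelium of control lineage males at 45 days, each with 2 Affymetrix arrays. Lineage was taken from the sample titles, since the treatment text of all 8 samples, the vinclozolin ones included, names only the DMSO vehicle. Each epithelium sample pooled 11 rats and each whole prostate sample pooled several, so a value is a mean over rats. Nothing in the labels tells separate rats behind the 2 samples of a group from 1 shared pool, so errors and p-values measure the spread between these samples and may be partly technical. Age and preparation changed together and cannot be told apart.

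The ventral prostate is a secretory gland of the rat that depends on androgen, with luminal cells that make the secretion, basal cells beneath them and a stroma of smooth muscle and fibroblasts. The 8 genes have different known roles. Slc5a11 encodes a sodium-coupled transporter of inositol, and Clu encodes clusterin, a secreted chaperone whose RNA is known to rise in the rat ventral prostate after castration. Gna14 encodes an alpha subunit of the Gq class of G proteins, which activate phospholipase C beta, and Scel encodes sciellin, a precursor of the cornified envelope of stratified epithelia. Tbc1d1 encodes a protein that switches off Rab GTPases and controls glucose transporter traffic in muscle. Vwc2 encodes brorin, a secreted antagonist of bone morphogenetic proteins (BMPs) described in mouse. Lgals3 encodes galectin 3, a lectin of epithelial cells and macrophages, and Rasd1 encodes a Ras-like GTPase that was found as a gene induced by dexamethasone, a glucocorticoid.

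Of the 8 genes, 5 were matched to a promoter in the RefSeq table, and Slc5a11, Clu and Lgals3 were not. The 5 are shown so that the windows of Gna14 and Scel, higher in the vinclozolin lineage, can be read beside those of Tbc1d1, Vwc2 and Rasd1, which were lower. Each runs 5′ to 3′ on the strand of the gene, from 250 bases before to 50 bases after the start used by RefSeq in build GRCr8. The windows are chr1:223141552-223141851 on the plus strand for Gna14, chr15:86754382-86754681 on the plus strand for Scel, chr14:44488118-44488417 on the minus strand for Tbc1d1, chr14:89897834-89898133 on the plus strand for Vwc2 and chr10:45267633-45267932 on the minus strand for Rasd1. Capitals mark every match, on either strand, to the motifs named in the next paragraph.
Gna14: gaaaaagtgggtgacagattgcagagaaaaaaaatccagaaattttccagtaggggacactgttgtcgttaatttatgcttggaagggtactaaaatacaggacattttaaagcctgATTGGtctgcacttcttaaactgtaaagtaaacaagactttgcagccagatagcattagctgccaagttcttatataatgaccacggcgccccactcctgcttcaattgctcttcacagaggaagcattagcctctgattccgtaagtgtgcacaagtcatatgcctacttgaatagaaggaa
Scel: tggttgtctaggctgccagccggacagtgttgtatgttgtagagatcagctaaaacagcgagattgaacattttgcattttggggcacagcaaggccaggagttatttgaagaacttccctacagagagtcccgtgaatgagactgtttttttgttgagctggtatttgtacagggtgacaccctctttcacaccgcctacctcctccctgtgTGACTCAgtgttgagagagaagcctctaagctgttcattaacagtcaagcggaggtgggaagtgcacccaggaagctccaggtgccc
Tbc1d1: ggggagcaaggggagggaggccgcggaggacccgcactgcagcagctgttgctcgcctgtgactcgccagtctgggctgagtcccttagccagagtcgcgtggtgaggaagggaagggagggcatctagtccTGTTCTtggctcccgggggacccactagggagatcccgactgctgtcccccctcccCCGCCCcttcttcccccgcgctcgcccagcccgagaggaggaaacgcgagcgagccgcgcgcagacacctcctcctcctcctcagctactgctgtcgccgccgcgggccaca
Vwc2: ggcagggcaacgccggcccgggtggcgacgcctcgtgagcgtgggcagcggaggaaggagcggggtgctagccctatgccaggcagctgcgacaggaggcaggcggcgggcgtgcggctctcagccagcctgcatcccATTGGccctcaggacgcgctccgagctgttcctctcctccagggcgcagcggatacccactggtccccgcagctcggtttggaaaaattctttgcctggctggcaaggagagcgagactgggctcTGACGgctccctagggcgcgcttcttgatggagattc
Rasd1: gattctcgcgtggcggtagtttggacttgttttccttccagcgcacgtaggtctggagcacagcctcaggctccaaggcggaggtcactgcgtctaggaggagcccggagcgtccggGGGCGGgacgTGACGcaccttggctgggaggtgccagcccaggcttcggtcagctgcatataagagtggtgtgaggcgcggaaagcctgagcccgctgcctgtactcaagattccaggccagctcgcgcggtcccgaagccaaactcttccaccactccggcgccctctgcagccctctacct

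The motifs searched, on both strands, were the TATA box with letters TATAAA, the AP-1 site TGANTCA, the GC box with letters GGGCGG, the CCAAT box, AGAACA as a single arm of the paired androgen and glucocorticoid receptor element, the E-box CACGTG, the cyclic AMP response element TGACGTCA and its core TGACG, which the full element contains. Scel held the AP-1 motif, 37 bases before the start, a motif present in 7.33% of the 33469 RefSeq promoter windows. Tbc1d1 held the single receptor arm (20.7% of windows) and a GC box (33.1%). Rasd1 held a GC box and TGACG (21.2%), Vwc2 held CCAAT (37.5%) and TGACG, and Gna14 held CCAAT. The TATA box, the E-box and the full cyclic AMP response element had 0 matches in these 5 windows. GC content was 41.0% in Gna14 and 49.7% in Scel, against 69.3% in Tbc1d1, 67.7% in Vwc2, 64.0% in Rasd1 and a median of 51.7% over all windows. These matches describe letters and not bound sites.

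Intensities were deposited on a linear scale with every array at a 2% trimmed mean of 125.0 or 125.1, and the share of probe sets that read under 16 units was 28.3% to 36.7%. Between epithelium arrays, vinclozolin replicate 2 and control replicate 2 correlated best with each other (Spearman 0.9537) and less with their own groups (0.9529 for the vinclozolin and 0.9518 for the control array). The samples labelled epithelium had higher stromal and basal marker sums than whole prostate. The summed intensity of 7 smooth muscle markers was 12982.3 to 15052.5 in the 4 epithelium arrays and 1935.9 to 2494.9 in the 4 whole prostate arrays. That of 7 fibroblast markers was 9705.5 to 10542.2 in epithelium and 2923.3 to 3176.7 in whole prostate, and that of 6 basal markers 2974.1 to 3183.2 and 779.2 to 831.0 in the same order. Luminal markers (8 of 10 on the array) differed far less, at 18798.1 to 19438.9 in epithelium and 17787.7 to 18580.1 in whole prostate. In such bulk samples fewer cells of a type and less RNA per cell cannot be told apart.

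Slc5a11 had the largest change of the 8 genes, from a very low control level. In whole prostate it read 93.6 and 82.0 intensity units on the vinclozolin arrays, against 2.7 and 12.3 units on the control arrays. In epithelium it read 113.8 and 129.6 units in vinclozolin and 10.7 and 8.9 units in control. All 4 vinclozolin arrays were thus above all 4 control arrays, and every control value lay under 16 units. On the scale of log2(intensity + 16), used for all log2 values here, vinclozolin minus control was 2.15 ± 0.22 in whole prostate and 2.45 ± 0.22 in epithelium (standard error, SE, of the fit, n = 2 arrays per group). The size of the change depends on the added constant where controls are this dim, at 3.49 in whole prostate and 3.65 in epithelium with 1 added, and 1.61 and 1.89 with 32 added, and no fold is given. The control arrays of the 2 preparations overlapped (4.62 ± 0.05 in epithelium and 4.61 ± 0.46 in whole prostate, log2 mean and SD, n = 2).

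Clu was higher in vinclozolin on its bright probe set, with mean intensities 2.02 times those of control in whole prostate and 2.44 times in epithelium. In whole prostate the bright probe set read 1504.9 and 1870.6 units in vinclozolin, against 847.1 and 828.5 in control. The epithelium arrays gave 2104.9 and 2195.3 units in vinclozolin and 917.4 and 847.5 in control. Vinclozolin arrays lay above control arrays in both preparations, and the 2 whole prostate vinclozolin arrays lay farther apart than those of any other group. The change was 1.00 ± 0.13 in whole prostate and 1.21 ± 0.13 in epithelium. The other Clu probe set was dim, at 11.5 to 43.1 units on all arrays. Its change was 0.14 ± 0.26 in whole prostate, where the lineages overlapped, and 0.53 ± 0.26 in epithelium.

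Gna14 was higher in vinclozolin on both of its probe sets. In whole prostate the brighter probe set read 332.9 and 304.0 units in vinclozolin and 127.0 and 117.3 in control. The readings in epithelium were 275.7 and 267.9 units in vinclozolin and 149.7 and 152.0 in control. The lineages did not overlap in either preparation. Its change was 1.25 ± 0.11 in whole prostate and 0.82 ± 0.11 in epithelium. The dimmer probe set gave 1.00 ± 0.19 and 0.58 ± 0.19 in the same order. The larger value was that of whole prostate on both, with a difference of the changes, epithelium minus whole prostate, of -0.44 ± 0.15 and -0.42 ± 0.26.

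Scel was dim in every group and higher in vinclozolin. In whole prostate it read 47.5 and 50.4 units in vinclozolin and 11.3 and 11.4 in control. Epithelium gave 25.0 and 29.7 units in vinclozolin and 2.4 and 6.6 in control. As with Slc5a11, every control array lay under 16 units, so that both genes could pass the level filter through their vinclozolin arrays. The change was 1.23 ± 0.14 in whole prostate and 0.99 ± 0.14 in epithelium. The difference of the changes, epithelium minus whole prostate, was -0.23 ± 0.20 and turned to 0.53 with 1 added in place of 16, so that the order of the 2 changes depends on the constant.

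**Figure D1:**
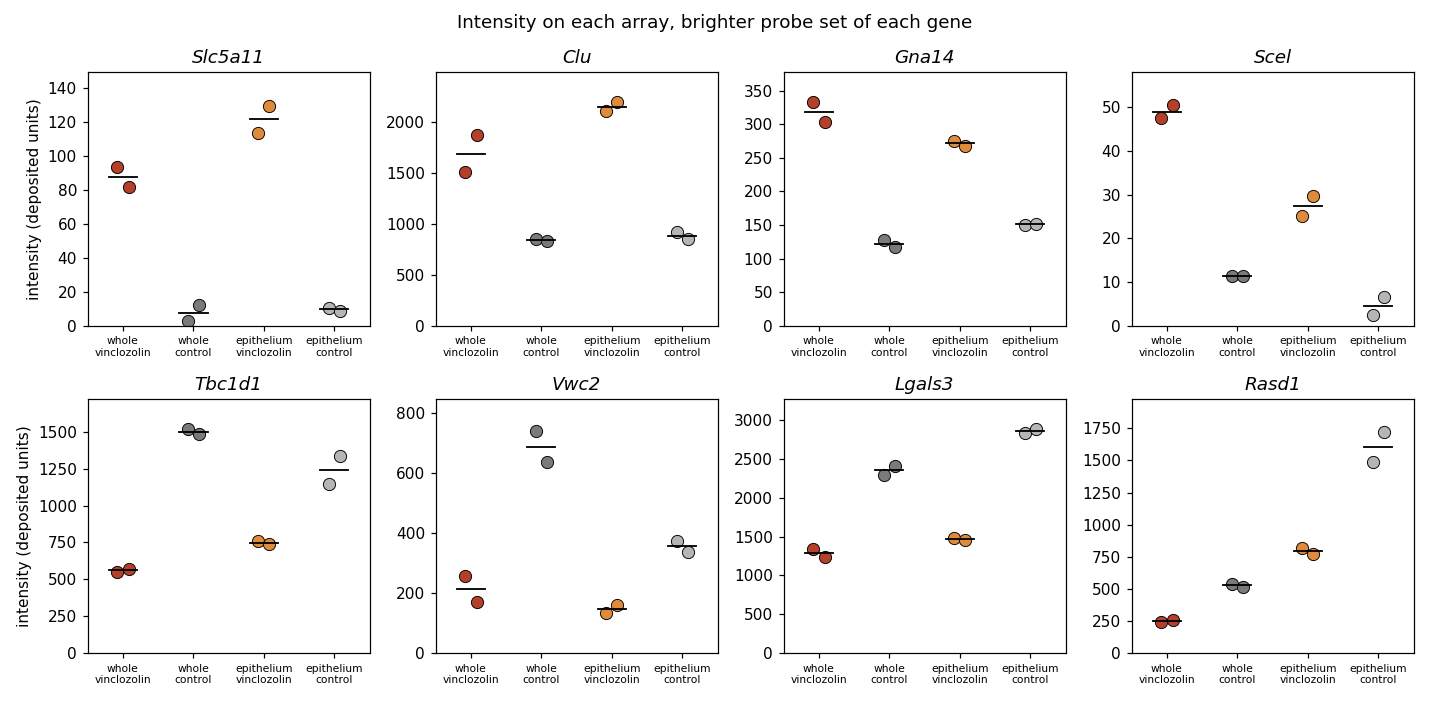
Deposited intensity (linear axis from 0) of each of the 8 genes on each of the 8 arrays, for the brighter probe set where a gene has 2. Each point is 1 array and each line the mean of 2. The top row holds the 4 genes higher in vinclozolin and the bottom row the 4 lower ones, and for Slc5a11 all control arrays lie between 2.7 and 12.3 units.

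Tbc1d1 was the lower gene whose change differed most between the preparations. In whole prostate the brighter probe set read 552.7 and 571.9 units in vinclozolin and 1517.6 and 1485.4 in control. For epithelium the readings were 758.5 and 737.3 units in vinclozolin and 1143.5 and 1338.5 in control. The order of the groups was whole prostate control highest, then epithelium control, epithelium vinclozolin and whole prostate vinclozolin, with no overlap between neighbours in that order. The change was -1.48 ± 0.11 in whole prostate and -0.66 ± 0.11 in epithelium, and the difference of the changes was 0.82 ± 0.16. The dimmer probe set had a smaller gap, with changes of -0.69 ± 0.14 and -0.51 ± 0.14 and a difference of 0.18 ± 0.20.

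Vwc2 was lower in vinclozolin with the widest scatter of the lower genes. In whole prostate it read 256.3 and 169.3 units in vinclozolin and 740.4 and 637.4 in control. In epithelium it read 134.7 and 159.6 units in vinclozolin and 375.2 and 339.0 in control. Both vinclozolin groups lay under both control groups on every array. The change was -1.60 ± 0.20 in whole prostate and -1.25 ± 0.20 in epithelium. It was -1.86 in whole prostate without vinclozolin replicate 1 and -1.34 without vinclozolin replicate 2.

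Lgals3 gave nearly the same change in both preparations. In whole prostate it read 1339.3 and 1241.5 units in vinclozolin and 2297.1 and 2414.4 in control. Its epithelium readings were 1480.7 and 1455.9 units in vinclozolin and 2838.5 and 2893.8 in control. Arrays of a group lay close together and the lineages were apart in both preparations. The change was -0.95 ± 0.11 in whole prostate and -0.93 ± 0.11 in epithelium, with a difference of 0.03 ± 0.15. The summed intensity of 10 macrophage markers overlapped between the lineages in whole prostate (1947.9 to 1979.8 in vinclozolin and 1870.0 to 2008.5 in control), while the median change of these markers was 0.54. Cd14, the brightest of them, was the one that read lower most (892.1 and 940.5 units in vinclozolin, 1379.4 and 1251.3 in control, change -0.58 ± 0.11, not passing), and Csf1r (1.11 ± 0.15, adjusted p = 0.026) and Fcgr3a (1.17 ± 0.19, adjusted p = 0.040) rose. Cd163 (-0.31 ± 0.40) and Adgre1 (-0.24 ± 0.14) also read lower, neither passing. Cd68, Aif1, C1qa, C1qb and Mrc1 read higher by 0.09 to 0.80, none passing. Without Cd14, left out after its values were seen, the sum of the other 9 was 1055.8 and 1039.3 in vinclozolin and 629.1 and 618.7 in control. That sum is a description, and the part of these markers in the Lgals3 change was not tested. In epithelium the sum of all 10 was 1675.7 to 1722.8 in vinclozolin and 1798.7 to 1878.4 in control, with a median change of -0.08.

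Rasd1 was also lower by nearly the same amount in both, around levels that differed between the preparations. In whole prostate it read 242.4 and 256.9 units in vinclozolin and 540.6 and 516.1 in control. On the epithelium arrays it read 819.4 and 770.6 units in vinclozolin and 1491.3 and 1724.1 in control. Even the vinclozolin epithelium arrays lay above the control whole prostate arrays. The change was -0.98 ± 0.12 in whole prostate and -0.91 ± 0.12 in epithelium, with a difference of 0.07 ± 0.17.

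**Figure D2:**
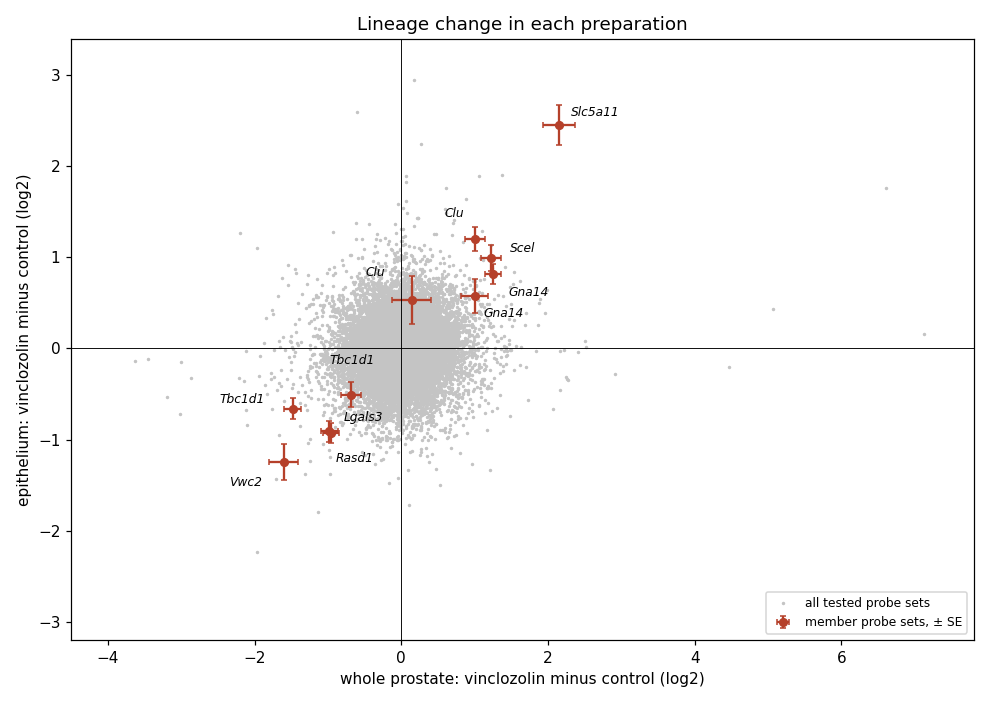
Vinclozolin minus control on the log2 scale in whole prostate (horizontal axis) and in epithelium (vertical axis), for the 11 probe sets of the 8 genes (red, bars ± SE) and all 21729 tested probe sets (grey). Slc5a11 lies apart from the grey cloud at 2.15 and 2.45, and the dim probe set of Clu lies within the grey cloud at 0.14 and 0.53.

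A shared sign alone was common in these data. Of all tested probe sets, 54.2% had the same sign in both preparations. Both changes were at least 0.5 in size for 292 probe sets, 10 of them from the 8 genes, and at least 1 for 15, of which 3 were Slc5a11, Vwc2 and the bright probe set of Clu. By the smaller of its 2 changes Slc5a11 was first of the 21729 probe sets, Vwc2 was at place 7, Clu at 15, Scel at 16, Lgals3 at 25, Rasd1 at 26, Gna14 at 36 and Tbc1d1 at 89, each by its best placed probe set. In the fit of limma, adjusted over all probe sets, 8 of the 11 probe sets passed in whole prostate, where 1.74% of all did (4 higher and 4 lower, next to 0.819% and 0.925% of all), and 0 in epithelium, where 0.0092% of all did (0.0046% higher and 0.0046% lower). Arrays of the lineages were apart for 10 of the 11 in whole prostate (53.9% of all) and 11 of the 11 in epithelium (39.4% of all). They were apart in the same direction in both preparations for 10 of the 11 and for 13.6% of all probe sets. The rule used these contrasts, so nothing is read from these counts. The 8 calls in whole prostate also rested on the full set of arrays. So did calls over all probe sets, which fell from 379 to 65 in a fit of the 4 whole prostate arrays. In that fit 1 of the 11 probe sets passed. Calls over all probe sets also fell with any 1 array left out, so losses among the 8 genes are not particular to them. Which of the 8 calls remained with 1 array left out is not given, since the rule used this contrast. Slc5a11 and Scel, with their dim control arrays, did not pass with 1 added in place of 16.

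Another 6 named genes had same-sign changes of at least 1 in both preparations and were not among the 8. Fam111a, which encodes a nuclear protease, was higher by 6.61 ± 0.15 in whole prostate and 1.77 ± 0.15 in epithelium. Sv2b, a synaptic vesicle glycoprotein gene, was lower in both (-1.31 ± 0.34 and -1.38 ± 0.34), as were Rps4x-ps1 (-1.25 ± 0.15 and -1.24 ± 0.15) and Card14 (-1.14 ± 0.21 and -1.79 ± 0.21). Kcnab1, which encodes a potassium channel beta subunit, was higher (1.23 ± 0.34 and 1.14 ± 0.34), as was Smcp, a sperm mitochondrial protein gene, with a large error (1.05 ± 0.77 and 1.90 ± 0.77).

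The 8 genes were next compared between epithelium and whole prostate, whatever the lineage. The choice did not use this difference, since the mean of both lineages is orthogonal to both lineage changes. Its errors come from the same fit as those changes, and Slc5a11 and Scel could pass the level filter through their vinclozolin arrays. The p-values are therefore not wholly free of the choice. Rasd1 was higher in epithelium, by 1.64 ± 0.09 (SE, n = 4 arrays per preparation, adjusted p = 4.5e-05), and it alone had 4 epithelium arrays apart from 4 whole prostate arrays, as did 36.4% of all probe sets. Scel was lower in epithelium by 0.70 (-0.70 ± 0.10, adjusted p = 0.0020), with all 4 control arrays that enter this mean under 16 units. In the vinclozolin arrays alone it was -0.81 (adjusted p = 0.0077), and over all alternatives the adjusted p ran from 0.00165 to 0.0239 and the difference from -1.42 to -0.49. Vwc2 was lower by 0.65 (-0.65 ± 0.14, adjusted p = 0.011). Tbc1d1 was higher on its dimmer probe set (0.73 ± 0.10, adjusted p = 0.0018), while the brighter one gave 0.08 ± 0.08 (adjusted p = 0.47). Gna14 was higher on its dimmer probe set (0.45 ± 0.13, adjusted p = 0.032), and the brighter one gave 0.06 ± 0.08 (adjusted p = 0.57). In all, 5 of the 11 probe sets passed, next to 41.4% of all probe sets, with 3 higher (18.5% of all) and 2 lower (22.9% of all).

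The other probe sets missed the threshold, which does not show equal levels. The bright Clu probe set gave 0.25 (95% interval 0.03 to 0.48, adjusted p = 0.073), the dim one 0.19 (-0.26 to 0.63, adjusted p = 0.45), Slc5a11 0.17 (-0.20 to 0.54, adjusted p = 0.42) and Lgals3 0.18 (0.00 to 0.37, adjusted p = 0.097). The bright Clu probe set passed with the filter at the 50th percentile (adjusted p = 0.042), with a trended robust prior (0.0041) and without whole prostate vinclozolin replicate 2 (0.32, adjusted p = 0.043), and Lgals3 passed with the values as deposited (0.23, adjusted p = 0.046) and with a trended robust prior (adjusted p = 0.0042). The brighter Tbc1d1 probe set was higher in epithelium when the vinclozolin arrays alone were compared (0.49, adjusted p = 0.023). In the control arrays alone it had the opposite sign (-0.33, adjusted p = 0.076, not passing), so its mean of 0.08 joins 2 opposite differences. With median centring of the arrays the preparation difference turned to -0.01 for the bright Clu probe set, to -0.19 for the brighter Gna14 probe set and to -0.16 for the brighter Tbc1d1 probe set, none of which passed. The median of all probe sets in this contrast was -0.06, and -0.18 with median centring. Of the calls, the one for Vwc2 was lost when the vinclozolin arrays alone were compared (-0.47, adjusted p = 0.13). The call for the dimmer Gna14 probe set was lost with no filter, with the vinclozolin arrays alone (0.24, adjusted p = 0.37) and without any one array other than whole prostate vinclozolin replicate 1 and epithelium vinclozolin replicate 2.

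**Figure D3:**
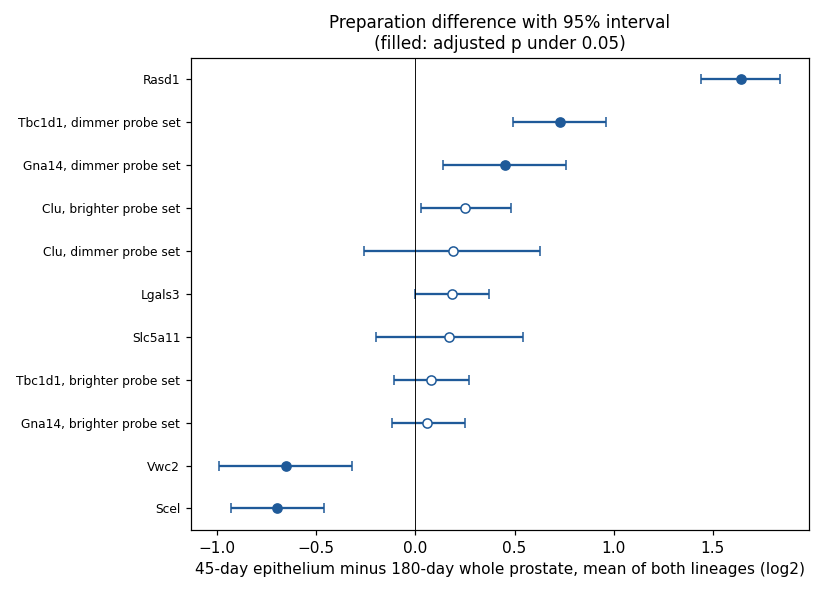
Difference between 45-day epithelium and 180-day whole prostate, as the mean of both lineages on the log2 scale, for each of the 11 probe sets, with the 95% interval. Filled points passed an adjusted p of 0.05. Rasd1 lies farthest right at 1.64 and Scel farthest left at -0.70.

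Families of the 8 genes were described from 8 lists with 161 genes that are not among them, of which 99 were tested with 137 probe sets. In whole prostate 5 of these probe sets passed (3.65%, against 1.74% of all), and 26 (19.0%) had an unadjusted p under 0.05, against 18.7% of all. Slc5a3, the gene of another sodium-coupled inositol transporter, fell by 1.19 in whole prostate (-1.19 ± 0.12, adjusted p = 0.0093), the direction opposite to Slc5a11, and measured -0.06 ± 0.12 in epithelium (adjusted p = 0.88). It was the only 1 of 10 tested genes of inositol and SLC5 transport to pass in whole prostate, and the list's median change there was 0.12. The BMP antagonist Fst fell on 1 of 2 probe sets (-1.13 ± 0.18, adjusted p = 0.038) among 10 tested antagonists with a median of 0.02. Lgals3bp, which encodes a ligand of galectin 3, rose (0.99 ± 0.16, adjusted p = 0.042) where Lgals3 was lower, as 1 of 10 tested genes of galectins and their partners with a median of -0.14. Rgs2, which encodes an inhibitor of Gq signalling, rose on both probe sets (0.71 ± 0.11 with adjusted p = 0.033 on 1 of them, and 0.78 on the other) among 16 tested genes of G protein subunits and effectors, with a median of -0.04. In epithelium Fst measured -0.55 ± 0.18 (adjusted p = 0.34), Lgals3bp -0.18 ± 0.16 (adjusted p = 0.74) and Rgs2 0.25 ± 0.11 (adjusted p = 0.44). The whole prostate calls rested on the full set of arrays. That of Rgs2 was lost with any 1 of the 8 arrays left out (change 0.65 to 0.79 over all alternatives, adjusted p up to 0.19), those of Fst (-1.37 to -0.96, up to 0.23) and Lgals3bp (0.85 to 1.18, up to 0.24) with any array left out except the 2 of vinclozolin epithelium, and that of Slc5a3 (-1.32 to -1.11, up to 0.11) with any of the 4 whole prostate arrays left out. All 4 were also lost in a fit of the whole prostate arrays alone, and Fst, Lgals3bp and Rgs2 with 1 added in place of 16 and with no filter.

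No gene passed in whole prostate in the lists of secreted chaperones and apolipoproteins (7 tested, median 0.36), Rab GTPase activation and glucose uptake (20 tested, median 0.02), glucocorticoid induced genes (17 tested, median -0.09) or cornified envelope genes (9 tested, median 0.18). Over all genes the median was 0.00 in both lineage contrasts. Tbc1d4, which encodes a close relative of Tbc1d1, measured -0.47 ± 0.29 and -0.16 ± 0.18 in whole prostate on its 2 probe sets, and 0.47 ± 0.29 and 0.60 ± 0.18 in epithelium, and none of these passed. In epithelium 0 of the 137 probe sets passed in limma and 11 (8.03%) had an unadjusted p under 0.05, against 11.4% of all. The list medians in epithelium ran from -0.11 for cornified envelope genes to 0.12 for inositol and SLC5 transport.

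Between the preparations 73 of the 137 family probe sets passed (53.3%, against 41.4% of all). Among glucocorticoid induced genes, the list that goes with Rasd1, 13 of 17 were higher in epithelium and 2 lower, with a median of 1.53. Errfi1, an inhibitor of the epidermal growth factor receptor, was higher by 3.26 ± 0.07 (adjusted p = 2.98e-06), Nfkbia, the NF-kappaB inhibitor, by 2.57 ± 0.08 (adjusted p = 9.15e-06), and Dusp1, a phosphatase of MAP kinases, by 2.44 ± 0.09 on 1 probe set (adjusted p = 1.13e-05) and by 3.62 on the other. BMP antagonists had 5 of 10 higher and 0 lower with a median of 0.54, while Vwc2 was lower. Crim1 was higher by 1.98 ± 0.19 (adjusted p = 0.00041), Fstl1 by 1.72 ± 0.10 (adjusted p = 7.4e-05) and Chrdl1 by 1.38 ± 0.15 (adjusted p = 0.00066). Lgals1 was higher by 1.67 ± 0.08 (adjusted p = 3.0e-05), among 4 higher and 1 lower of 10. The stromal and basal marker sums given above moved in the same direction, and their part in these differences was not tested.

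Marker lists moved with lineage as well. In whole prostate the skeletal muscle sum was 430.0 to 451.4 in vinclozolin and 1632.2 to 1638.1 in control (4 of 6 tested genes lower), and that of seminal vesicle and other accessory gland genes was 6196.9 to 6864.8 and 12067.7 to 12487.4 in the same order (3 of 5 lower). In epithelium the accessory gland sum was 12059.1 to 12327.7 in vinclozolin and 8042.5 to 8180.3 in control, the opposite direction. Skeletal muscle there read 4455.6 to 4463.1 in vinclozolin and 5225.4 to 5526.4 in control. In the epithelium lineage contrast 0 genes of either list passed. Most of the accessory gland sum was Msmb and Semg1. Acta1 (3866.2 to 4820.4 units) and Tnnc2 (540.6 to 692.9) made up most of the epithelium skeletal muscle sum. Myl1, Tnnt3, Ckm and Myh4 read at most 36.9 units on the epithelium arrays. Smooth muscle sums were lower in vinclozolin in both preparations, at 1935.9 to 2073.5 against 2487.1 to 2494.9 in whole prostate and 12982.3 to 13229.5 against 14868.9 to 15052.5 in epithelium. In whole prostate Acta2 (0.32 ± 0.17) and Smtn (0.24 ± 0.45) read higher and the rest of that list lower, while in epithelium all read lower. Macrophage markers had 2 of 10 genes higher in whole prostate, and luminal, basal, smooth muscle, fibroblast, endothelial, lymphocyte and adipocyte lists had 0 genes passing in either lineage contrast. Of the markers on the array, Gzmb lay under 16 units on every array. The part of these lists in the changes of the 8 genes was not tested.

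For each gene the 2 other genes with the most similar profile over the 8 arrays were sought among 2660 named probe sets with an SD over arrays of at least 0.5. The 8 arrays fall into 4 groups and are not independent points, and Pearson's r is given as a description. The profiles carry the lineage changes that chose the 8 genes. A likeness between 2 of the 8 therefore follows in part from the choice, and nothing is read from it. Slc5a11 was most similar to Clu (0.96) and Gna14 (0.94), and Clu in turn to Slc5a11 and Gna14 (0.93). Gna14 was most similar to Fut2, a fucosyltransferase gene (0.97), with lineage changes of 1.54 in whole prostate and 0.84 in epithelium. Scel was most similar to Acad11, an acyl-CoA dehydrogenase gene (0.99), and Slc3a1, an amino acid transporter subunit gene (0.96). Tbc1d1 was most similar to Vps13c (0.98) and to Azgp1, which encodes a secreted glycoprotein (0.98) and had changes of -2.10 and -0.84. Vwc2 went with Rps4x-ps1 (0.98; whole prostate -1.25, epithelium -1.24) and Setd1b, a histone methyltransferase gene (0.96). Lgals3 went with Arrdc2 (0.97) and Card14 (0.95), and Rasd1 with Nkd1, a Wnt inhibitor gene (0.99), and Cdcp1 (0.99). Rasd1 had 48 other genes with r above 0.95 and each of the other 7 had between 1 and 3. Like Rasd1, Nkd1 and Cdcp1 were higher in epithelium than in whole prostate, by 1.00 and 1.42. In that contrast 41.4% of all probe sets passed, so the 48 are not read as a set particular to Rasd1.

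The nearest protein-coding genes on either side of the 8 genes, in the RefSeq order of GRCr8, were looked at in both lineage contrasts. Of these neighbours 11 genes with 18 probe sets were tested, next to 7 of the 8 genes. In limma 0 of the 18 passed in whole prostate, where 1.74% of all probe sets did, and 0 in epithelium, where 0.0092% did. An unadjusted p under 0.05 was found for 6 of the 18 in whole prostate (18.7% of all) and 1 of the 18 in epithelium (11.4% of all). Their changes ran from -0.57 to 0.64 in whole prostate and from -0.34 to 0.38 in epithelium. The neighbours of Slc5a11, Tnrc6a and Arhgap17, had 5 probe sets between 0.04 and 0.64 in whole prostate and between -0.22 and 0.38 in epithelium. Those of Tbc1d1, Klf3 and Pgm2, lay between -0.03 and 0.41 in whole prostate. Opposite in direction to the gene beside them there were Mycbp2, next to Scel (-0.54 and -0.57), and Zpbp, next to Vwc2 (0.54). In epithelium Mycbp2 and Zpbp lay between -0.12 and 0.01.

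**Figure D4:**
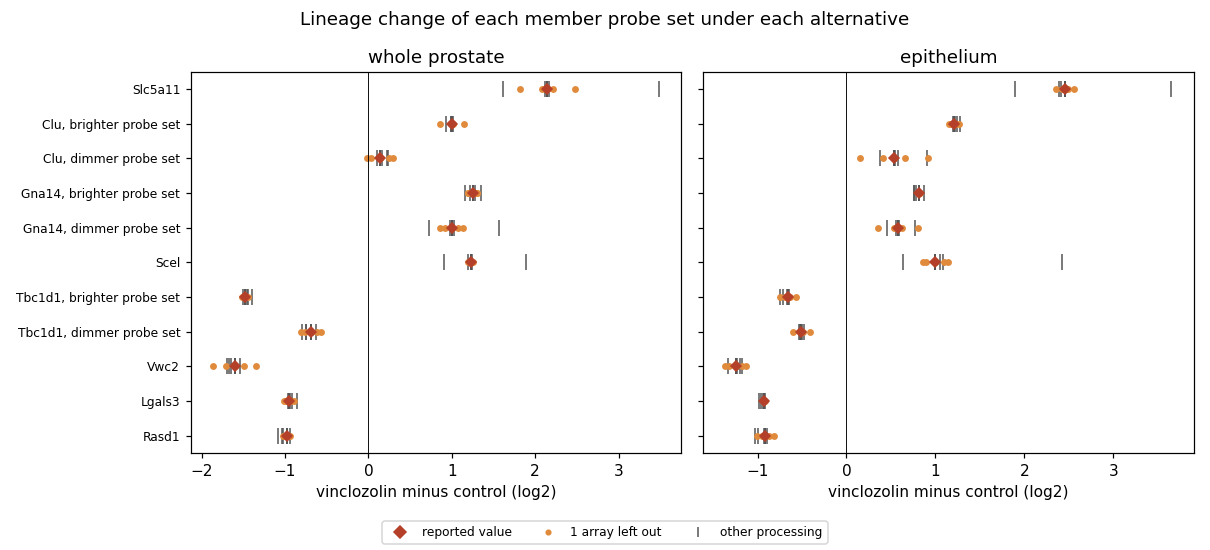
Vinclozolin minus control (log2) of each of the 11 probe sets in whole prostate (left) and epithelium (right), as reported (diamonds), with 1 array left out (dots) and with other processing (ticks). The dim probe set of Clu in whole prostate is the only one to reach 0, at -0.01, and Slc5a11 and Scel spread most, up to 3.65 and 2.42 in epithelium.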

How the data were processed

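The deposited values are linear intensities of 31099 probe sets on 8 arrays, and per the file's values the authors scaled each array to a common trimmed mean. The software behind this step is not stated in the labels or the file, and no detection calls were used. From there 57 control probe sets were left out, 16 was added, log2 was taken, arrays were quantile normalised, and probe sets under the 30th percentile of the mean level were left out, which left 21729. A model with 4 group means was fitted to all 8 arrays with limma 3.58.1 in R 4.3.3 (4 residual and 2.62 prior degrees of freedom), with Benjamini-Hochberg adjustment over all tested probe sets and calls at an adjusted p under 0.05. Probe sets were named from the platform annotation where it gives 1 symbol (20832). No symbol needed an update from RefSeq. The code was tested on simulated data. The number of arrays limits the precision.

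The 8 genes and all gene lists were chosen with earlier results of these data known. Named genes were the 8, up to 3 passing genes per list and comparison, the 2 most similar genes, and genes with same-sign changes of at least 1. Tbc1d4, Cd14, Acta2, Smtn, the neighbouring genes and the accounts of single arrays were chosen after their values were seen. Replicate numbers did not pair the samples: replicate differences correlated between -0.02 and 0.029 across the group pairs.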

Additional observations from a re-analysis of the deposited data

How the results depend on the processing

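Calls in whole prostate numbered 379, and 235 with 1 added in place of 16, 651 with 32, 200 with no filter, 965 with the filter at the 50th percentile, 1814 with a trended robust prior, 871 with array weights, 65 from the 4 whole prostate arrays alone and 26 to 220 with 1 array left out. The 2 calls in epithelium became 0 with 1 added (2254 at an unadjusted p under 0.05), 19 with 32, 1 with median centring, 0 with no filter (2967 unadjusted), 23 at the 50th percentile, 205 with the trended robust prior, 0 with array weights (1933 unadjusted), 0 from the 4 epithelium arrays alone (1823 unadjusted) and 0 with any 1 array left out. For the difference of the changes 63 calls became 40 with 1 added, 133 with 32, 32 with no filter, 169 at the 50th percentile, 540 with the trended robust prior and 5 to 18 with 1 array left out. Between the preparations 8995 calls became 5946 in the vinclozolin arrays alone and 6788 to 8131 with 1 array left out, and the share of higher calls was 44.7%, 30.1% with median centring and 53.8% with the values as deposited. In whole prostate that share was 47.0%, and 36.1% with median centring, 53.1% without control replicate 1, 61.5% without control replicate 2 and 36.8% without vinclozolin replicate 1. The cause of these shifts was not tested.

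With the replicate block the counts were 177 in whole prostate, 0 in epithelium (2383 unadjusted), 26 for the difference and 8593 between the preparations. The replicates share only a number, and the block changed no preparation call of the 8 genes. The whole prostate calls of the bright Clu probe set, Fst, Lgals3bp and Rgs2 were lost under it.

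The dim Clu probe set ranged from -0.0119 to 0.289 in whole prostate, the first without vinclozolin replicate 1 and the second without vinclozolin replicate 2. With 1 added, Slc5a11 gave 3.49 in whole prostate and 3.65 in epithelium, and Scel 1.89 and 2.42. Low signal limits both genes, whose control arrays lie under 16 units. The shared direction of the changes, those of Slc5a11 and Scel included, follows from how the genes were chosen.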
